A study of Mus musculus with 12 samples.

Results

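Pressure overload was examined in mouse hearts that carried extra PRODH, by comparing 3 PRODH TAC libraries with 3 PRODH sham libraries, 6 of the 12 libraries of the series. PRODH, or proline dehydrogenase, is an enzyme of mitochondria that takes the first step in degrading proline. The comparison was defined by label, although earlier results of these data were known when it was chosen. It covered all genes with a normalized count of at least 1 in 3 libraries. Every C57BL/6 mouse, whether operated on or sham-operated, carried AAV9, an adeno-associated virus vector that reaches heart muscle well. PRODH mice received AAV9-PRODH, described as meant for overexpression in the heart, and vector mice received AAV9-Vector. Surgery came 3 weeks later, and cardiac tissue was taken 4 weeks after it. The groups were PRODH TAC, PRODH sham, vector TAC and vector sham, with 3 libraries each. The labels give all mice a wild-type genotype and give no age, sex, viral dose, promoter or measure of cardiac function. They do not say whether a library is 1 mouse, so p-values measure the spread between these libraries.

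Transverse aortic constriction (TAC) narrows the aorta, so that the left ventricle must pump against a higher pressure. Heart muscle cells answer such a load by growing, by making natriuretic peptides and by returning to contractile protein isoforms of the fetal heart. Fibroblasts lay down matrix, and the muscle cells make less of the machinery that burns fatty acids. Each of these programs was followed here from the genes of the muscle cell to those of the matrix, of metabolism and of other cell types.

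Recovered reads ranged from 10.1 to 15.2 per library in units of 1e6 reads. The 12 ventricular myocyte markers had a mean log2 level of 14.85, 14.92 and 14.91 in PRODH TAC hearts, against 15.14, 14.95 and 15.10 in PRODH sham hearts. Over 11124 genes with a mean above 50, the median standard deviation between replicates was 0.113 in PRODH TAC and 0.134 in PRODH sham on the log2 scale. In vector hearts the same spread was 0.244 after TAC and 0.194 after sham surgery. PRODH sham replicate 2 stood apart in markers of epicardium and mesothelium, the outer lining of the heart. Their mean log2 level was 5.39 in that library, against 2.73 and 2.83 in the other PRODH sham libraries. PRODH TAC libraries had 3.21 to 3.92. Their summed normalized counts separated it less. The sums were 1908 to 3073 in PRODH TAC hearts, against 1739 to 3474 in PRODH sham hearts, with the highest in that library. Vector sham replicate 3 had a larger sum, 4427. By mean log2 level vector TAC replicate 1 was rich in these markers too, at 5.51, against 3.37 and 3.07 in the other vector TAC libraries.

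Prodh (ENSMUSG00000003526), the mouse gene for PRODH, had normalized counts of 964, 1319.8 and 1021 in PRODH TAC hearts, against 965, 497 and 1072 in PRODH sham hearts. In vector hearts it was lower, at 245, 172 and 159.6 in vector TAC hearts, against 334, 292 and 379 in vector sham hearts. Within PRODH hearts the TAC and sham values overlapped, with PRODH sham replicate 2 the lowest. The log2 difference, always TAC minus sham here, was 0.45 ± 0.24 (SE, n = 3 per group) and did not pass (limma adjusted p = 0.63). The sources used here do not say whether this entry counts reads from the viral copy.

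The number of genes that passed depended on which libraries were fitted and on which genes were kept. It was 5 with all 12 libraries and 298 with the 6 PRODH libraries on the same genes. With genes kept by the 6 PRODH libraries alone it was 1023. When all 12 libraries were fitted together and shared 1 estimate of the spread, 4 genes rose and 1 fell after TAC in PRODH hearts among 21173 tested, 0.0189% and 0.00472% of the genes, 0.0236% in all (limma, Benjamini-Hochberg adjusted p under 0.05). At an unadjusted p under 0.05 there were 918 higher and 898 lower. When only the 6 PRODH libraries were fitted, with genes kept if at least 3 of these 6 had a value of at least 1, 460 rose and 563 fell among 19129 tested, 2.4% and 2.94% and together 5.35%. Groups that did not overlap were found for 11.3% of genes with PRODH TAC higher and 12.6% with PRODH TAC lower. This second fit was chosen after the data were seen, and it contained the 5 genes of the first. It is called the PRODH-only fit here, and "rose" and "fell" are used of genes that passed in it. Of its 1023 calls, 121 differed by at least 1 on the log2 scale, a doubling or halving, and 669 by less than 1.5-fold. Leaving out PRODH TAC replicate 1 left 45 calls, the lowest of the 6 such fits, and leaving out PRODH sham replicate 2 gave 1650, the highest. Fits without PRODH TAC replicates 2 and 3 gave 654 and 283, and those without PRODH sham replicates 1 and 3 gave 259 and 414.

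In the same 6 libraries, differences after TAC also followed transcript length. The median log2 difference was -0.38 for 109 genes with transcripts of up to 600 nt, -0.06 for 1831 genes of 2000 to 3000 nt and 0.14 for 2450 genes above 5000 nt. In vector hearts the medians of these same bins were -0.021, -0.0029 and -0.011. The median log2 deviation of transcripts under 1000 nt minus that of transcripts over 3000 nt was -0.17, -0.13 and -0.07 in PRODH TAC libraries, against 0.26, 0.31 and 0.18 in PRODH sham libraries. Vector libraries ranged more widely, at 0.69, -0.50 and -0.52 after TAC and 0.31, -0.35 and -0.08 after sham surgery. After removal of a trend on length and GC content from each PRODH library, a step added after the data were seen, 243 genes rose and 256 fell, 1.27% and 1.34% of 19104 genes and 2.61% in all. In the fit of all 12 libraries the same step gave 26 rises and 8 falls among 21141 genes, 0.123% and 0.0378% and together 0.161%. Of the 1023 genes called before, 419 were called in both. Removing the trend also removes any true difference that follows length, and which of these applies was not tested. This fit is called length-adjusted here.

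Nppb and Ankrd1 were among the 4 rises of the fit of all 12 libraries, and Acta1 had the largest rise among the 45 genes that were called in the PRODH-only fit whichever library was left out. Nppb (ENSMUSG00000029019) encodes brain natriuretic peptide, which stretched muscle cells release. Ankrd1 (ENSMUSG00000024803) encodes a cardiac ankyrin repeat protein that shuttles between the sarcomere and the nucleus. Acta1 (ENSMUSG00000031972) encodes skeletal muscle actin, an isoform that the adult heart largely replaces with cardiac actin. As genes of the muscle response to load that rose here, their promoters are shown. The 250 bases before the start of each are from the RefSeq table of build GRCm38.p6, 5′ to 3′ on the gene's strand. Capitals mark matches to 4 motifs, each searched on both strands. The first is CATTCC, the MCAT motif bound by TEAD factors. The second is AGATAA, bound by GATA factors. The third is TATAAA, the TATA box, and the last is the CArG box bound by SRF.
Nppb, chr4:147985650-147985899, plus strand: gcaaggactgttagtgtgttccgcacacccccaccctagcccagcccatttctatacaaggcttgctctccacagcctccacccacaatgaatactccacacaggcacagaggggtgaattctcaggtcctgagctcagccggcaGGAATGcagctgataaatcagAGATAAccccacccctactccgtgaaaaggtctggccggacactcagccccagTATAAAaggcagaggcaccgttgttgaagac
Ankrd1, chr19:36119845-36120094, minus strand: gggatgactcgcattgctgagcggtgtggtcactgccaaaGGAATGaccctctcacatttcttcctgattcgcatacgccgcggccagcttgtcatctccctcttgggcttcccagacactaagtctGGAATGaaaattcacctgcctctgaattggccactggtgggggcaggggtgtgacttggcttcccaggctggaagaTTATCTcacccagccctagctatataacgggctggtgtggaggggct
Acta1, chr8:123894776-123895025, minus strand: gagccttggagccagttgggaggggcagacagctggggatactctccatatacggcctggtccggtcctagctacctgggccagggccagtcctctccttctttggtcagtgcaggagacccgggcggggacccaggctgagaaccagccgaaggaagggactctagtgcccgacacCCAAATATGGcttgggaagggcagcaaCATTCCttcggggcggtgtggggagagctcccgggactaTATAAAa

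Nppb held 1 MCAT, 1 GATA and 1 TATA match, Ankrd1 held 2 MCAT and 1 GATA match, and Acta1 held 1 MCAT, 1 CArG and 1 TATA match. Over windows of the same length for 32851 promoters in the table, 12.6% held CATTCC, 9.99% AGATAA, 12.4% TATAAA and 1.47% a CArG box. The same windows of Klhl34, Uck2 and Ano10, the other genes called in the fit of all 12 libraries, held none of the 4. That of Nppa, the other natriuretic peptide gene, which also rose, held 1 TATA match and no MCAT, GATA or CArG match. A match describes letters and not binding.

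Nppb had normalized counts of 6963, 6821 and 8023 in PRODH TAC hearts, against 2643, 2568 and 2668 in PRODH sham hearts. The groups were far apart, and the sham libraries lay close together. The log2 difference was 1.46 ± 0.18 in the fit of all 12 libraries (SE, limma adjusted p = 0.0066) and 1.77 in the length-adjusted fit. In vector hearts Nppb had 14077, 15576 and 15581 in vector TAC hearts, against 2558, 2677 and 1542 in vector sham hearts, a rise of 2.78 ± 0.18. The difference between both responses was -1.31 with a 95% interval of -1.86 to -0.77, and it missed the threshold (limma adjusted p = 0.066).

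Ankrd1 had 37148, 24188 and 31785 in PRODH TAC hearts, against 9786, 9110.5 and 11286 in PRODH sham hearts, without overlap. It rose by 1.61 ± 0.24 (SE, limma adjusted p = 0.036 in the fit of all 12 libraries). Klhl34, a kelch-like gene, had 208, 197 and 209.7 in PRODH TAC hearts, against 75.1, 78.4 and 84.2 in PRODH sham hearts. It rose by 1.36 ± 0.16 (limma adjusted p = 0.0066), and in vector hearts by 1.34 ± 0.16. The 2 responses of Klhl34 differed by 0.02 with a 95% interval of -0.46 to 0.50. Uck2, a uridine-cytidine kinase that salvages pyrimidines, had 1649, 962 and 1191 in PRODH TAC hearts, against 539, 616 and 595 in PRODH sham hearts. All 3 TAC libraries were above the sham libraries, although they differed among themselves by more than the sham libraries did. Uck2 rose by 1.08 ± 0.16 (limma adjusted p = 0.036).

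Ano10, of the anoctamin family of membrane proteins, was the 1 fall that passed in the fit of all 12 libraries. It had 485, 503 and 469.9 in PRODH TAC hearts, against 1091, 885 and 1012 in PRODH sham hearts, again without overlap, and fell by 1.03 ± 0.13 on the log2 scale (limma adjusted p = 0.0066). All 5 genes lost the threshold in that fit without PRODH TAC replicate 1 or 3 or PRODH sham replicate 1 or 3, with log2 differences from 0.88 for Uck2 to 1.69 for Ankrd1 among the rises and of -1.03 to -0.96 for Ano10. In the PRODH-only fit all 5 were called without any single library.

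**Figure D1:**
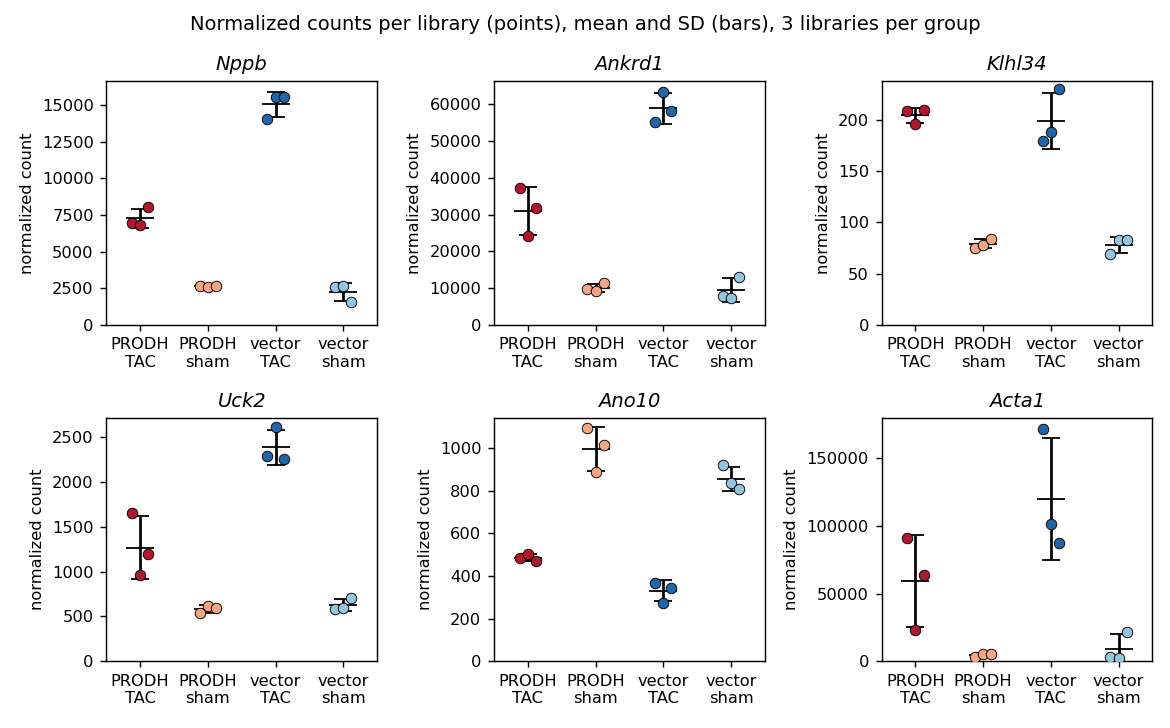
Normalized counts of the 5 genes called in the fit of all 12 libraries and of Acta1, per library (points), with the group mean and SD (bars, n = 3). In PRODH hearts the TAC libraries do not overlap the sham libraries for any of the 6 genes, and Nppb, Ankrd1 and Uck2 are higher still in all 3 vector TAC libraries.

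Across the hypertrophy and fetal gene list, 19 of 33 genes rose and 0 fell in the PRODH-only fit, beside 2.4% and 2.94% of all genes. The list's median difference was 0.82, beside 0.01 over all genes tested. The length-adjusted fit called 19 rises and 0 falls as well, with a median of 0.67, and 3 of the 33 passed in the fit of all 12 libraries. The count fell to 9 without PRODH TAC replicate 1 and lay between 14 and 19 without any other PRODH library. At an unadjusted p under 0.05, 2 members were lower.

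Acta1 had 90951, 23061 and 63673 in PRODH TAC hearts, against 3466, 5777 and 5199.7 in PRODH sham hearts. Its TAC values spread widely, yet the lowest lay above every sham value. It rose by 3.44 ± 0.36 (SE, PRODH-only limma adjusted p = 0.00043). Nppa, which encodes atrial natriuretic peptide, had 809, 1675 and 1592 in PRODH TAC hearts, against 269, 418 and 558 in PRODH sham hearts and rose by 1.70 ± 0.26. Vector TAC hearts held more, at 5789.8, 22464 and 15172, against 446, 614 and 810.2 in vector sham hearts, and the responses of Nppa differed by -2.67 (95% interval -3.92 to -1.43, limma adjusted p = 0.1).

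Of both myosin heavy chains of the ventricle, Myh7 passed and Myh6 did not. Myh7, the slow chain of the fetal ventricle, had 2451, 1277 and 1781 in PRODH TAC hearts, against 718, 1000.01 and 963 in PRODH sham hearts and rose by 1.00 ± 0.19 (SE, PRODH-only limma adjusted p = 0.0088). That call was lost without PRODH TAC replicate 1 and in 2 of the other 5 leave-one-out fits. Myh6, the fast chain of the adult mouse ventricle, had 172266, 204509 and 168295 in PRODH TAC hearts, against 214684, 162172 and 212786 in PRODH sham hearts. These values overlapped, and the log2 difference was -0.11 ± 0.20 (PRODH-only limma adjusted p = 0.84).

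Other muscle genes of load moved the same way. Xirp2, which organizes actin at the intercalated disc, had 11812, 7951 and 10430.4 in PRODH TAC hearts, against 3891, 4959 and 4069 in PRODH sham hearts and rose by 1.21 ± 0.13, chosen after its values were seen. Abra, a muscle activator of SRF signalling, had 2304, 1778 and 2218 in PRODH TAC hearts, against 926, 896 and 874 in PRODH sham hearts and rose by 1.21 ± 0.10 (PRODH-only limma adjusted p = 4.3e-05). Ankrd23, a relative of Ankrd1, rose by 1.26 ± 0.18. Gdf15, a secreted hormone of cell stress, had 149, 65.9 and 192 in PRODH TAC hearts, against 36.4, 21 and 18.6 in PRODH sham hearts and rose by 2.30 ± 0.37.

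In the sarcomere and Z-disc list, 4 of 27 genes rose and 2 fell, beside 2.4% and 2.94% of all genes. The counts were 4 and 1 after the length adjustment and 4 and 5 in edgeR. Flnc, filamin C of the Z-disc, had 8238, 6124 and 7174 in PRODH TAC hearts, against 3409, 3848 and 4177 in PRODH sham hearts and rose by 0.91 ± 0.11. Nrap, which anchors thin filaments, rose by 0.66 ± 0.09. Synpo2l, a Z-disc protein, rose by 0.82 ± 0.10 and Myot, myotilin, by 1.25 ± 0.23. Myot was no longer called in 4 of the 6 leave-one-out fits.

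Matrix genes rose after TAC in PRODH hearts. Of 86 extracellular matrix genes, 32 rose and 2 fell in the PRODH-only fit, beside 2.4% and 2.94% of all genes. In the length-adjusted fit 24 rose and 2 fell, beside 1.27% and 1.34%. None passed in the fit of all 12 libraries, where 23 were higher and 2 lower at an unadjusted p under 0.05. The list's median was 0.46 in PRODH hearts and 1.35 in vector hearts. In that same fit of all 12 libraries, vector hearts had 56 calls higher and 2 lower, beside 3.72% and 4.05% of all genes. The PRODH-only count of rises became 8 without PRODH TAC replicate 1. It was 42 without PRODH sham replicate 2, the library rich in mesothelial markers, and lay between 15 and 21 without the other PRODH libraries. In bulk tissue, more cells of a type and more RNA per cell cannot be told apart.

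Among the secreted matricellular proteins, which signal to cells more than they bear load, Thbs1 (thrombospondin 1, an activator of latent TGF-beta) had 949, 937 and 943 in PRODH TAC hearts, against 166, 288 and 189 in PRODH sham hearts. It rose by 2.17 ± 0.16 (SE, PRODH-only limma adjusted p = 1.6e-05). Postn, periostin of activated fibroblasts, had 1427, 1349.5 and 1335 in PRODH TAC hearts, against 544, 503 and 477 in PRODH sham hearts. The groups stood well apart with little spread, and Postn rose by 1.43 ± 0.08 (PRODH-only limma adjusted p = 1.6e-06). Vector TAC hearts held 4752, 26238 and 17799 Postn counts, against 896, 712 and 673 in vector sham hearts, and the responses differed by -2.68 (95% interval -3.90 to -1.46, limma adjusted p = 0.095). Cilp, a cartilage protein that binds TGF-beta, had 763, 530.4 and 587 in PRODH TAC hearts, against 149, 178 and 138 in PRODH sham hearts and rose by 2.00 ± 0.14.

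Ccn2, connective tissue growth factor, had 2855, 3056 and 2915 in PRODH TAC hearts, against 1062, 997 and 1078 in PRODH sham hearts. It rose by 1.49 ± 0.07 (SE, PRODH-only limma adjusted p = 7.9e-07), the smallest p in its list. Tgfb2, a TGF-beta ligand, rose by 0.99 ± 0.20. Meox1, a transcription factor of activated fibroblasts, had 534, 435 and 621 in PRODH TAC hearts, against 191, 307 and 228 in PRODH sham hearts and rose by 1.14 ± 0.17. In all, 8 of 32 genes on the list for TGF-beta and myofibroblasts rose and 0 fell, beside 2.4% and 2.94% of all genes. After the length adjustment 8 rose and 1 fell. The edgeR quasi-likelihood fit of the 6 libraries gave 9 and 0, and 4 were lower at an unadjusted p under 0.05. Without PRODH TAC replicate 1 the count was 1.

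Of the main fibrillar collagen genes Col1a1 passed and Col3a1 did not. Col1a1 had 2601, 2467 and 2402 in PRODH TAC hearts, against 1403, 2019 and 1481 in PRODH sham hearts and rose by 0.63 ± 0.12 (SE, PRODH-only limma adjusted p = 0.0087). The call was lost after the length adjustment, where the difference was 0.44 (limma adjusted p = 0.077). Col3a1 had 5430.0, 4988 and 5503 in PRODH TAC hearts, against 3298, 4927 and 3803 in PRODH sham hearts, a difference of 0.42 ± 0.12 that did not pass (PRODH-only limma adjusted p = 0.064). Col8a1, a short-chain collagen, rose by 1.33 ± 0.13, with 1106, 887 and 994 in PRODH TAC hearts, against 353, 485 and 354 in PRODH sham hearts. Mfap4, a microfibril protein, had 572, 406 and 536 in PRODH TAC hearts, against 240.1, 327 and 206 in PRODH sham hearts and rose by 0.98 ± 0.16. The 2 members that fell were Ogn and Thbs2, by 0.60 ± 0.08 and 0.60 ± 0.14 on the log2 scale. Col8a1, Ogn and Thbs2 were chosen after their values were seen.

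Fibroblast markers were called in both directions. Of 18 cardiac fibroblast markers 3 rose and 3 fell, beside 2.4% and 2.94% of all genes, with a median of -0.02. Scara5, a marker of resting fibroblasts, had 308, 495 and 312 in PRODH TAC hearts, against 586, 551 and 625 in PRODH sham hearts and fell by 0.69 ± 0.15 on the log2 scale. Dpep1, a dipeptidase, fell by 0.51 ± 0.10 on that scale. The 3 that rose were Col1a1, Pi16 and Mfap5, of which Mfap5 was also called after the length adjustment. Pi16 was named after its values were seen. Without PRODH TAC replicate 1 limma called 0 of the 18.

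**Figure D2:**
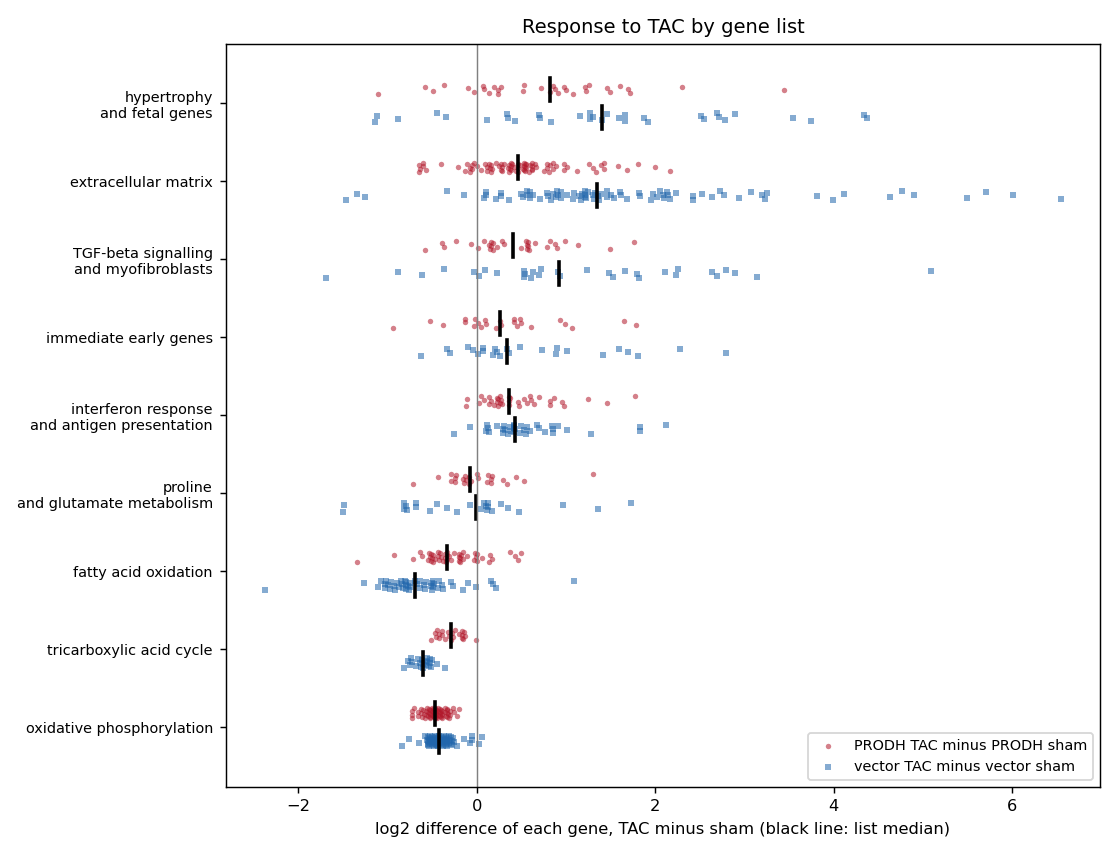
Log2 difference of TAC minus sham for every gene of 9 lists, in PRODH hearts (circles) and vector hearts (squares), with the list median as a black line. Medians of the matrix list stand at 0.46 in PRODH hearts and 1.35 in vector hearts, and those of oxidative phosphorylation at -0.47 and -0.42.

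Fatty acid genes fell. Of 51 genes of fatty acid uptake, storage and oxidation, 21 fell and 0 rose, beside 2.94% and 2.4% of all genes. The list's median was -0.33 in this PRODH-only fit. The edgeR fit gave 23 and 0, and 1 was higher at an unadjusted p under 0.05. After the length adjustment 14 fell, with a median of -0.28. The count of falls was 1 without PRODH TAC replicate 1 and 32 without PRODH sham replicate 2. The list's mean log2 level was 11.05, 11.01 and 11.07 in PRODH TAC hearts, against 11.38, 11.11 and 11.43 in PRODH sham hearts, where replicate 2 was lower than the others.

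Acot1, a cytosolic acyl-CoA thioesterase under PPAR control, had 105, 143 and 126 in PRODH TAC hearts, against 344, 252 and 358 in PRODH sham hearts and fell by 1.34 ± 0.16 on the log2 scale (SE, PRODH-only limma adjusted p = 0.0011). Acaa2, the mitochondrial thiolase that ends each round of oxidation, had 8383, 9873 and 9413 in PRODH TAC hearts, against 17022, 12467 and 16283 in PRODH sham hearts and fell by 0.72 ± 0.12. Etfb, which passes electrons from the oxidation steps to the respiratory chain, fell by 0.61 ± 0.09. Rxrg, a nuclear receptor partner of the PPARs, had 728, 785 and 743 in PRODH TAC hearts, against 1206, 1052 and 973 in PRODH sham hearts and fell by 0.51 ± 0.09. Cpt1b, the muscle carnitine palmitoyltransferase, had 61.5, 54.9 and 56 in PRODH TAC hearts, against 34.1, 43 and 58 in PRODH sham hearts and did not pass, at 0.38 ± 0.25 (PRODH-only limma adjusted p = 0.46).

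In the tricarboxylic acid cycle 7 of 23 genes fell, beside 2.94% of all genes, and 3 did so after the length adjustment. None rose in limma, in the edgeR fit or at an unadjusted p under 0.05. Suclg1, a subunit of succinyl-CoA ligase, had 3992, 4478 and 4435 in PRODH TAC hearts, against 6279.8, 5854 and 6279.5 in PRODH sham hearts and fell by 0.51 ± 0.08 on the log2 scale (SE, PRODH-only limma adjusted p = 0.004). Idh3a, the catalytic subunit of NAD-dependent isocitrate dehydrogenase, fell by 0.42 ± 0.08, and Sdhc, of succinate dehydrogenase, by 0.42 ± 0.08. These 3 were the ones that also passed after the length adjustment. The count was 18 without PRODH sham replicate 2 and 0 without PRODH TAC replicate 1.

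Oxidative phosphorylation had more calls than any other list, 61 falls among 73 genes, beside 2.94% of all genes. It had no rise in limma, in the edgeR fit or at an unadjusted p under 0.05. The list's median log2 level was 12.43, 12.55 and 12.50 in PRODH TAC hearts, against 13.05, 12.87 and 13.01 in PRODH sham hearts. These transcripts are short, with a median length of 983 nt. Their median difference was -0.47, beside -0.37 for 75 cytoplasmic ribosomal protein genes with a mean above 500, a list added after the data were seen, and -0.26 for 590 other genes under 1200 nt with a mean above 100. After the length adjustment the 3 medians were -0.27, -0.16 and -0.01, and 13 of the 73 oxidative phosphorylation genes fell. In vector hearts the 3 medians were -0.42, 0.09 and -0.02. The list's median log2 level was 12.81, 11.88 and 11.91 in vector TAC hearts, against 12.90, 12.54 and 12.63 in vector sham hearts, with overlap. In the fit of all 12 libraries 1 of the 73 was called lower in vector hearts, beside 4.05% of all genes, and 0 in PRODH hearts. The PRODH-only calls numbered 0 without PRODH TAC replicate 1 and 70 without PRODH sham replicate 2.

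Atp5o, a stalk subunit of ATP synthase, had 5503, 5486 and 5779 in PRODH TAC hearts, against 8299.5, 8295 and 8242 in PRODH sham hearts and fell by 0.57 ± 0.08 on the log2 scale (SE, PRODH-only limma adjusted p = 0.0021). After the length adjustment the difference was -0.29 and did not pass (limma adjusted p = 0.055). Cox7b, a small subunit of cytochrome c oxidase, had 7757, 8716 and 9184 in PRODH TAC hearts, against 14282, 15111 and 12869 in PRODH sham hearts and fell by 0.72 ± 0.10, and it was also called after the adjustment. Its name, like those of the next genes, was picked after the values were seen. Ndufs4 of complex I and Uqcrq of complex III likewise fell in both fits, by 0.52 ± 0.08 and 0.55 ± 0.10 in the PRODH-only fit.

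**Figure D3:**
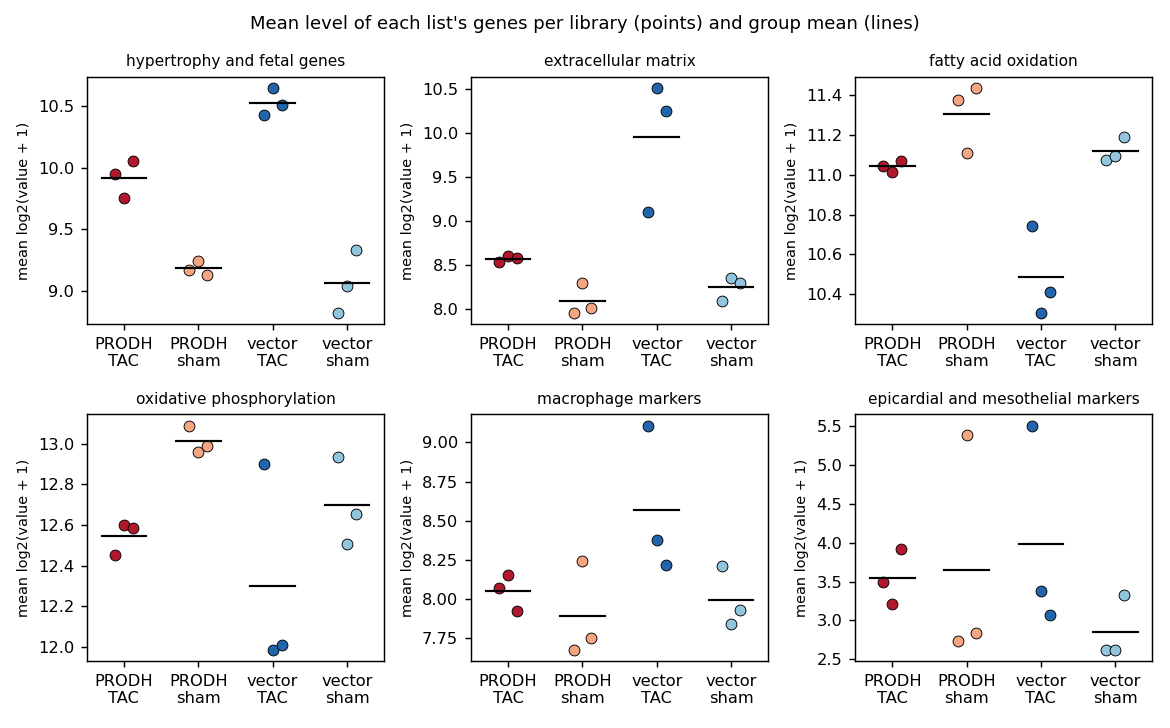
Mean log2(normalized count + 1) over the genes of 6 lists in each library (points) with the group mean (lines). In PRODH hearts the TAC libraries lie above the sham libraries for the hypertrophy and matrix lists and below them for both metabolic lists, and PRODH sham replicate 2 is the highest PRODH library for mesothelial and macrophage markers.

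Of 28 genes of glycolysis and glucose transport, 1 rose and 2 fell, beside 2.4% and 2.94% of all genes. The length-adjusted fit had 0 rises and 2 falls, and without PRODH TAC replicate 1 there was 1 fall, against 11 without PRODH sham replicate 2. Pfkfb1, a maker of the glycolytic regulator fructose 2,6-bisphosphate, had 62.5, 96.6 and 111 in PRODH TAC hearts, against 217, 247 and 279 in PRODH sham hearts and fell by 1.48 ± 0.20 on the log2 scale (SE, PRODH-only limma adjusted p = 0.0018). Eno3, muscle enolase, fell by 0.57 ± 0.11, and Pfkp, the platelet phosphofructokinase, rose by 0.47 ± 0.11, a call lost after the length adjustment (limma adjusted p = 0.22). In branched-chain amino acid breakdown 3 of 24 genes fell, beside 2.94% of all genes, among them Mccc2 by 0.43 ± 0.10. The edgeR fit called 4 falls, and 13 were lower at an unadjusted p under 0.05. After the length adjustment limma called 0.

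Of 26 genes of proline and glutamate metabolism, the pathway of PRODH itself, 1 rose and 2 fell, beside 2.4% and 2.94% of all genes. The length-adjusted fit had 0 rises and 3 falls, and limma called 0 without PRODH TAC replicate 1. Gpt, an alanine aminotransferase, had 378, 419 and 402 in PRODH TAC hearts, against 686, 578 and 700.2 in PRODH sham hearts and fell by 0.71 ± 0.10 on the log2 scale (SE, PRODH-only limma adjusted p = 0.0021), and Gpt2, its mitochondrial relative, by 0.43 ± 0.08. Slc36a1, a proton-coupled transporter of proline and other small amino acids, had 203, 209.7 and 219.6 in PRODH TAC hearts, against 131, 159 and 149.9 in PRODH sham hearts and rose by 0.53 ± 0.13, a call lost after the length adjustment (limma adjusted p = 0.12). Aldh4a1, which follows PRODH in proline breakdown, had 1036, 1118 and 1155 in PRODH TAC hearts, against 1489, 998 and 1238 in PRODH sham hearts, with overlap and a difference of -0.15 ± 0.12. Pycr1 and Aldh18a1, which make proline, differed by -0.24 ± 0.38 and 0.34 ± 0.12. None of these 3 passed, with PRODH-only limma adjusted p = 0.55, 0.79 and 0.14.

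Genes of the receptor, channel and calcium lists were called in both directions. Adrb1, the main beta-adrenergic receptor of heart muscle, had 136, 180.1 and 177 in PRODH TAC hearts, against 302, 246 and 331 in PRODH sham hearts and fell by 0.83 ± 0.15 on the log2 scale (SE, PRODH-only limma adjusted p = 0.0068). Adra1b, an alpha-adrenergic receptor, fell by 0.72 ± 0.10. Among 26 genes of adrenergic, angiotensin and endothelin signalling, 25 of them tested, 4 rose and 3 fell, beside 2.4% and 2.94% of all genes, and 2 and 3 after the length adjustment. The rises were Ace, Grk5, Ednrb and Edn3. Kcnj3, a G protein-gated potassium channel, had 495, 629 and 569.8 in PRODH TAC hearts, against 1005, 847 and 1040.4 in PRODH sham hearts and fell by 0.77 ± 0.11. Kcnv2, a silent potassium channel subunit, fell by 1.09 ± 0.19. Of 32 potassium, sodium and pacemaker channel genes 1 rose and 3 fell, beside 2.4% and 2.94% of all genes. After the length adjustment 1 rose and 4 fell. Atp2a2, which pumps calcium back into the sarcoplasmic reticulum, had 147029, 149995 and 147431 in PRODH TAC hearts, against 189547, 143997 and 182150.0 in PRODH sham hearts, and its difference of -0.20 ± 0.19 did not pass (PRODH-only limma adjusted p = 0.62). In the calcium handling list 1 of 29 rose, Atp2b4, and 3 fell, beside the same shares of all genes, and 0 and 1 after the length adjustment. Without PRODH TAC replicate 1 none of these 3 lists had a call in limma. Ace, Ednrb, Edn3 and Atp2b4 were named after their values were seen.

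Immediate early genes switch on within minutes of a stimulus and also with tissue handling. Of 25 such genes 8 rose, beside 2.4% of all genes, with none lower by limma or edgeR. At an unadjusted p under 0.05, 1 was lower. Ier5 had 1499, 1556 and 1755 in PRODH TAC hearts, against 653, 882 and 899 in PRODH sham hearts and rose by 0.99 ± 0.12 (SE, PRODH-only limma adjusted p = 0.001). Myc rose by 1.07 ± 0.24 and Egr3 by 1.65 ± 0.30. The count was 1 without PRODH TAC replicate 1 and also 1 without PRODH TAC replicate 3. Of 37 interferon and antigen presentation genes 5 rose, beside 2.4% of all genes, and 6 in edgeR. Among them was Oas2, an antiviral sensor of double-stranded RNA, with 262, 284 and 238 in PRODH TAC hearts, against 148, 147 and 105 in PRODH sham hearts. None of these 37 was lower by limma, by edgeR or at an unadjusted p under 0.05. The count of rises was 0 without PRODH TAC replicate 1, 13 without PRODH sham replicate 2 and 2 without each of the other PRODH libraries.

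Markers of blood and immune cells gave no call in limma. Of 22 macrophage markers 0 were called by limma and 1 by edgeR, with 2 higher and 0 lower at an unadjusted p under 0.05. Their summed counts were 13329.7 to 15625 in PRODH TAC hearts, against 11932 to 17199 in PRODH sham hearts. Lymphocyte, granulocyte, mesothelial, adipocyte and erythroid markers gave no call by limma or edgeR either, with 0, 1, 1, 2 and 0 higher and none lower at an unadjusted p under 0.05. Summed erythroid counts were 28431 to 55399 in PRODH TAC hearts, against 30811 to 138482 in PRODH sham hearts, where replicate 2 was the highest. No mesothelial marker was at 0 in all 6 PRODH libraries. The part of these cells in the gene changes above was not tested beyond the fits without PRODH sham replicate 2. Ventricular myocyte markers gave 1 fall among 12 in limma, beside 2.94% of all genes, and 3 in edgeR. The limma fall was Tnni3, cardiac troponin I, by 0.63 ± 0.14 on the log2 scale, a call lost after the length adjustment (limma adjusted p = 0.13).

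Other genes missed the threshold in the fit of all 12 libraries but had the smallest p-values below it, and they were called in the PRODH-only fit. Among the rises, Nlrc3, a regulator of innate immune signalling, had 175, 85.6 and 141 in PRODH TAC hearts, against 27.3, 28.7 and 17.5 in PRODH sham hearts. Tbx15, a T-box transcription factor, had 85.4, 32.9 and 67 in PRODH TAC hearts, against 7.97, 9.93 and 8.75 in PRODH sham hearts. They rose by 2.37 ± 0.29 and 2.57 ± 0.38. Ntng2, netrin G2, had 255, 194 and 255 in PRODH TAC hearts, against 112, 132 and 137 in PRODH sham hearts and rose by 0.88 ± 0.15. The little-known Gm46637, Gm47985 and Gm41505 rose by 1.65 ± 0.30, 2.14 ± 0.37 and 3.19 ± 0.58. Gm41505 is annotated as antisense, and the sources used here do not state the strand used in counting, so its reads may belong to the partner gene.

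Among the falls, Ppip5k2, which makes inositol pyrophosphates, had 1101, 1257 and 1109 in PRODH TAC hearts, against 2019.7, 1913 and 1824 in PRODH sham hearts and fell by 0.73 ± 0.08 on the log2 scale. Angpt1, the angiopoietin that steadies vessels through the Tie2 receptor, had 251, 295 and 269 in PRODH TAC hearts, against 484, 443 and 614 in PRODH sham hearts and fell by 0.90 ± 0.12. Gpr22, a G protein-coupled receptor of the heart with no known ligand, had 154, 244 and 142 in PRODH TAC hearts, against 406, 444 and 379 in PRODH sham hearts and fell by 1.22 ± 0.17. Dglucy, a mitochondrial D-glutamate cyclase, fell by 0.71 ± 0.10, and P3h4, which takes part in collagen hydroxylation, by 0.67 ± 0.09. Rab3a, a GTPase of vesicle release, fell by 0.53 ± 0.09. The noncoding 9330158H04Rik and 2310015K22Rik fell by 1.05 ± 0.13 and 2.40 ± 0.50.

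Calls that did not depend on 1 library were few. In the PRODH-only fit, 45 genes were called with all libraries and with each of the 6 left out, 31 of them higher and 14 lower. They included Acta1, Thbs1, Cilp, Nppa, Ankrd1, Ccn2, Nppb and Postn at the top of the rises and Nmb, Pfkfb1 and Acot1 among the falls. Nmb, which encodes the peptide neuromedin B, had 42.7, 43.9 and 60.4 in PRODH TAC hearts, against 173, 162 and 127 in PRODH sham hearts. Il15, a cytokine that muscle also makes, had 348, 348 and 325 in PRODH TAC hearts, against 678, 651 and 694 in PRODH sham hearts. Maob, monoamine oxidase B of the outer mitochondrial membrane, had 435, 484 and 479.7 in PRODH TAC hearts, against 794, 708 and 834 in PRODH sham hearts. The TAC and sham values of these 3 genes did not overlap, and they fell by 1.64 ± 0.20, 0.98 ± 0.09 and 0.74 ± 0.09 on the log2 scale. They were chosen after their values were seen. Of the 106 named genes called in the PRODH-only fit, 19 belonged to the 45, and 87 were lost without PRODH TAC replicate 1.

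**Figure D4:**
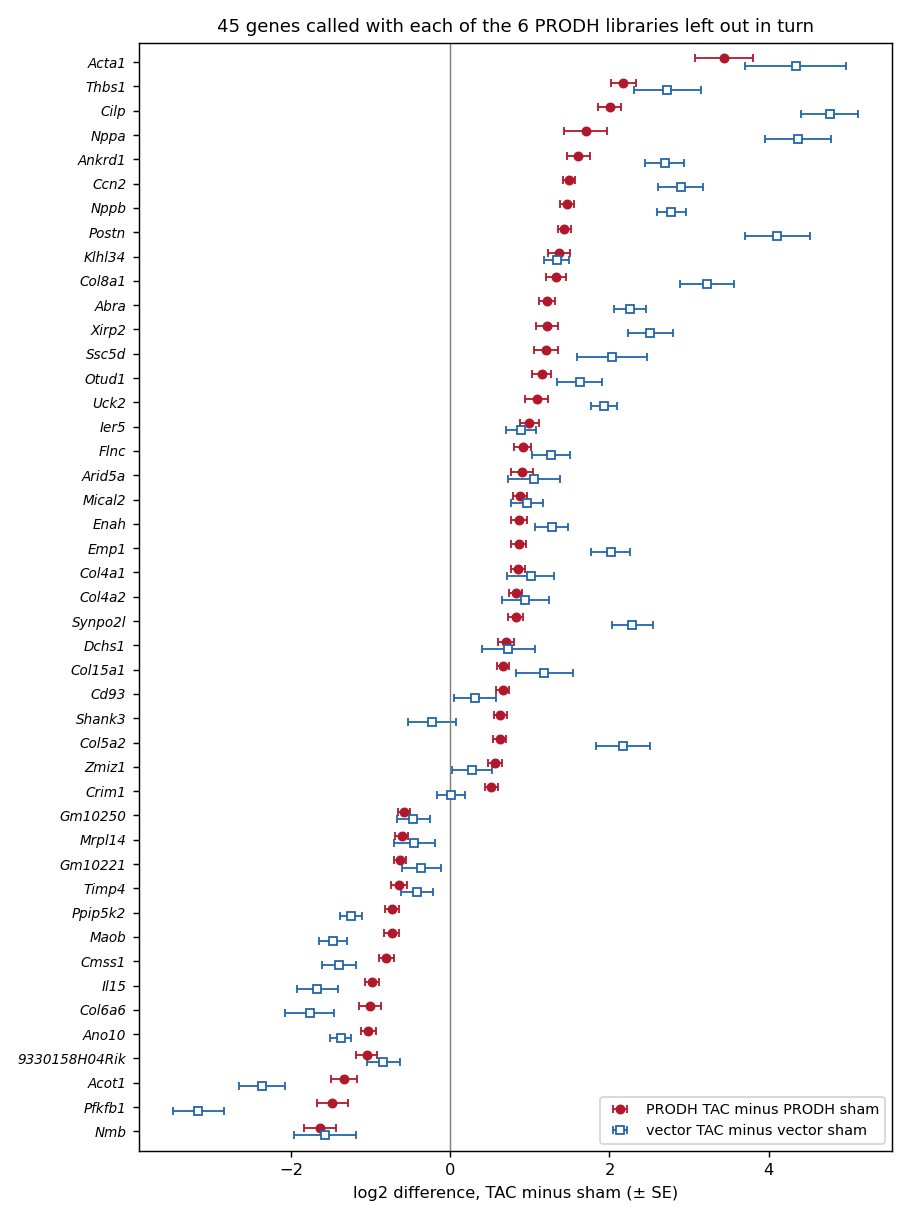
Log2 difference ± SE of TAC minus sham for the 45 genes called with each PRODH library left out in turn, in PRODH hearts (circles) and vector hearts (squares). Acta1 is the largest rise in PRODH hearts at 3.44 and Nmb the largest fall at -1.64. Genes such as Postn and Cilp stand farther from 0 in vector hearts.

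Vector hearts share no library with PRODH hearts, so the directions of both responses could be set side by side. The vector calls come from the fit of all 12 libraries, whose spread includes the PRODH libraries. Shares called in vector hearts are therefore not independent of which genes the PRODH libraries chose. Of the 460 genes that rose in the PRODH-only fit, 413 (89.8%) were also higher after TAC in vector hearts and 182 were called there, 39.6% of the 460 and 23.1% of the 787 vector rises (3.72% of genes tested). Among all genes higher in PRODH hearts, 62.9% were also higher in vector hearts and 6.8% were called there. Of the 563 falls, 501 (89%) were lower in vector hearts and 193 were called, 34.3% of the 563 and 22.5% of the 858 vector falls (4.05%), against 59.4% and 8.22% of all genes lower in PRODH hearts. With the length adjustment the shares of the same direction were 93% of 243 rises and 96.9% of 256 falls. The vector comparison called 1645 genes, 7.77% of those tested, in the fit of all 12 libraries.

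The genes called in vector hearts had smaller median differences in PRODH hearts. The 787 vector rises had a median log2 difference of 0.34 in PRODH hearts and 1.22 in vector hearts, and the 858 vector falls -0.29 and -0.83. The vector values chose these genes, so their medians in vector hearts lean away from 0. For the genes chosen in PRODH hearts the medians were close, at 0.56 in PRODH hearts and 0.55 in vector hearts for the 460 rises, and -0.47 and -0.44 for the 563 falls, and here the choice leans the other way. Tested gene by gene, the difference between the responses passed for 22 of 21173 genes (0.104%), with the PRODH response above the vector response for 10 (0.0472%) and below it for 12 (0.0567%). The 12 included 4 of the 86 matrix genes, Mfap4, Mfap5, Cthrc1 and Fmod, the last 2 named after their values were seen. Fmod, fibromodulin, had 16.9, 9.88 and 23.1 in PRODH TAC hearts, against 5.69, 89.4 and 8.75 in PRODH sham hearts. In PRODH hearts its groups overlapped, with PRODH sham replicate 2 the highest. Vector hearts had 300.1, 2232 and 1608 in vector TAC hearts, against 6.17, 10.9 and 14.7 in vector sham hearts. The interval of this difference could be wide, as for Acta1, at -2.82 to 1.02 around -0.90. A difference that missed the threshold does not show that the responses were alike.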

How the data were processed

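Heart RNA was prepared with TRIzol and DNase I and sequenced as SMARTER mRNA libraries, per the labels' protocols. The deposited signal covers 24775 genes in 12 libraries. It equals counts over a size factor specific to each column, since 100% of the deposited values are whole multiples of the column's step within 0.01. In PRODH TAC replicate 1 this step is 0.993. Of aligner, counter, genome build and annotation, the sources used here state none.

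Tests used limma 3.58.1 (R 4.3.3, variance trend on) for log2(value + 1), which understates changes of low genes, keeping genes that reached 1 in 3 or more libraries, at a Benjamini-Hochberg adjusted p under 0.05. It fitted all 12 libraries, or the 6 PRODH libraries alone. The length adjustment removed, per library, natural splines of 5 degrees of freedom on log2 length and GC content (longest GENCODE M21 transcript), fitted on genes with a mean above 100. Alternatives used edgeR 4.0.16 and DESeq2 1.42.0 on the recovered reads, other filters and scalings, and each library left out. The procedures were tested on simulated data with the same spread in every group and no length trend, so these tests do not cover either feature. Chi-square values per degree of freedom between replicates were 4.37 to 87.2, above sampling noise. An exact permutation test of 3 against 3 cannot go below p = 0.1, so p-values rest on the model.

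The comparison and all gene lists were chosen with earlier results of these data known. Named genes were 16 fixed genes, the called or else smallest-p 12 rises and 12 falls averaging 10 or more without overlap, up to 4 smallest-p members per list, and the 6 smallest p of the difference between responses. The text marks genes picked outside this rule.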

Additional observations from a re-analysis of the deposited data

Results flagged for a closer look

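Among the named genes, 8 were flagged because the response to TAC differed between PRODH and vector hearts by the test of the difference itself, the PRODH log2 difference minus the vector one (limma on all 12 libraries). No explanation was tested for any of them.

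For 4 genes the PRODH response lay above the vector response. Gm28439 had normalized counts of 4514, 5761 and 5870.0 in PRODH TAC hearts, against 3398, 2659 and 3619 in PRODH sham hearts, and 1539, 1340.2 and 1533 in vector TAC hearts, against 2567, 3195 and 3210.2 in vector sham hearts. It was higher after TAC in every PRODH library and lower in every vector library, a difference of 1.76 (limma adjusted p = 0.014). It is annotated as an unprocessed pseudogene, so its reads may be shared with a near-identical copy. Dusp18, a dual-specificity phosphatase, had 528, 632 and 551 in PRODH TAC hearts, against 587, 430.5 and 633 in PRODH sham hearts, and 223, 197 and 275 in vector TAC hearts, against 649.9, 632 and 683 in vector sham hearts, a difference of 1.57 (limma adjusted p = 0.02). Lingo3, a leucine-rich repeat membrane protein, had 137, 202 and 176 in PRODH TAC hearts, against 226, 200.9 and 196 in PRODH sham hearts, and 61.4, 37.9 and 45.2 in vector TAC hearts, against 224, 217 and 187 in vector sham hearts, a difference of 1.83 (limma adjusted p = 0.026). P2ry1, a receptor for ADP, had 250.2, 278 and 266 in PRODH TAC hearts, against 317, 286 and 341 in PRODH sham hearts, and 143, 132 and 134 in vector TAC hearts, against 362, 348 and 359 in vector sham hearts, a difference of 1.14 (limma adjusted p = 0.026).

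For the other 4 the PRODH response lay below. Nupr1, a stress-induced nuclear protein, had 117, 115 and 112 in PRODH TAC hearts, against 76.2, 110.4 and 99.6 in PRODH sham hearts, and 453, 551 and 422 in vector TAC hearts, against 120.3, 85.1 and 74.6 in vector sham hearts, a difference of -2.07 (limma adjusted p = 0.014). Csrp2, a LIM protein of smooth muscle, had 192, 247 and 186 in PRODH TAC hearts, against 273, 268 and 231 in PRODH sham hearts, and 618, 636 and 514 in vector TAC hearts, against 264, 216 and 198 in vector sham hearts, a difference of -1.7 (limma adjusted p = 0.014). The microfibril genes Mfap4 and Mfap5 differed by -1.96 and -1.97 (limma adjusted p = 0.038 and 0.046). Mfap5 had 718, 796 and 604 in PRODH TAC hearts, against 385, 600.4 and 469 in PRODH sham hearts, and 2056, 4415 and 3246 in vector TAC hearts, against 649.9, 552 and 429.8 in vector sham hearts.

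None of the 8 calls held without PRODH TAC replicate 3, PRODH sham replicate 2, vector TAC replicate 2 or vector sham replicate 2, where the differences ran from 1.07 for P2ry1 to 1.81 for Lingo3 and from -2.06 for Nupr1 to -1.62 for Csrp2.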

How the results depend on the processing

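For TAC against sham in PRODH hearts, the 5 calls of all 12 libraries became 3 with upper quartile scaling, 11 with edgeR, 125 with DESeq2, 298 with only the 6 PRODH libraries and the same genes, 34 with the length and GC trend removed, and 244 without both mesothelial-rich libraries (PRODH sham replicate 2, vector TAC replicate 1). The last 2 settings were added after the data were seen. Leaving out single libraries gave 0 to 287, the 0 without PRODH TAC replicate 1 or 3 or PRODH sham replicate 1 or 3 and the 287 without vector TAC replicate 1. The PRODH-only fit, with 1023 calls, gave 499 with the trend removed and 45 to 1650 with single libraries left out. Its length-adjusted form gave 64 to 1178. The vector count of 1645 became 320 with only the 6 vector libraries, 3513 without both these libraries, and 817 to 3420 with single libraries left out. The 22 differences between responses became 7 with a pseudocount of 0.1, 7 with a minimum of 10, 206 with DESeq2, 246 without both these libraries and 40 with the trend removed. Single libraries left out gave 0 to 396. Why these counts moved was not tested.

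Deviations of same-numbered PRODH libraries correlated at 0.0306, 0.0892 and 0.0316, against -0.109 to 0.0971 between different numbers. Same-numbered vector libraries had 0.362, 0.442 and -0.123, against -0.584 to 0.571 between different numbers. So few values cannot show whether samples were paired. With the replicate number as a block the counts were 5 for PRODH, 1737 for vector and 35 for the difference, and 706 in the PRODH-only fit.

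Of the named log2 differences, 12 values changed sign, all of genes that had not passed. Without single libraries Dusp18 ran from -0.1002 (without PRODH sham replicate 2, and the same without both mesothelial-rich libraries) to 0.178, with -0.00937 without PRODH TAC replicate 2. Likewise Pycr1 ran from -0.498 to 0.0387, Hba-a1 from -1.08 to 0.0996 and Hbb-bs from -0.942 to 0.0311, each highest without PRODH sham replicate 2, and the same without both libraries. S100a9 ran from -1.46 to 0.00674, the last without PRODH TAC replicate 3, and Sftpb from -0.187, without PRODH sham replicate 1, to 0.937. Atp2a2 was 0.0713 with quantile normalization. Of list medians, 871 values stayed within the spread between replicates and 65 moved beyond it. No setting moved the median of all genes by over 0.1. Genes with few reads limit what could be detected.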

Other observations

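From the 45 genes called with each PRODH library left out, 3 were picked whose difference was smaller or of opposite sign in vector hearts. They are not all such genes among the 45. Shank3, a scaffold protein, had 1409, 1462 and 1398 in PRODH TAC hearts, against 989, 924 and 848 in PRODH sham hearts, and 621, 1498 and 1702 in vector TAC hearts, against 957, 1980.3 and 1344 in vector sham hearts. Its rise in PRODH hearts was 0.63 ± 0.08, and the difference in vector hearts was -0.23. Cd93, a receptor of endothelial cells, had 2021, 2230.1 and 2307 in PRODH TAC hearts, against 1318, 1499 and 1338 in PRODH sham hearts and rose by 0.66 ± 0.08, with 0.31 in vector hearts. Crim1, a membrane protein that binds growth factors of the BMP family, rose by 0.52 ± 0.08, with 0.01 in vector hearts. The differences between responses did not pass for these 3 genes, with limma adjusted p = 0.61, 0.85 and 0.61. They were chosen after their values were seen.

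Among 26 genes of the integrated stress response and serine synthesis, 25 of them tested, 4 rose in the PRODH-only fit, beside 2.4% of all genes. By limma or edgeR 0 fell, with 2 lower at an unadjusted p under 0.05. Mthfd2, a mitochondrial folate enzyme, had 177, 122 and 158 in PRODH TAC hearts, against 61.4, 70.6 and 75.5 in PRODH sham hearts and rose by 1.11 ± 0.18 (SE, PRODH-only limma adjusted p = 0.0043). Atf3, a stress transcription factor, had 367, 426 and 651 in PRODH TAC hearts, against 200.3, 270.4 and 270.2 in PRODH sham hearts and rose by 0.93 ± 0.18. The count of rises was 3 after the length adjustment and 0 without PRODH TAC replicate 1. Among 27 antioxidant genes 1 rose and 5 fell, beside 2.4% and 2.94% of all genes. After the length adjustment 0 rose and 2 fell, and without PRODH TAC replicate 1 limma called 0. Sod1, the cytosolic superoxide dismutase, had 2416, 2806 and 2719 in PRODH TAC hearts, against 3904, 3432 and 3941 in PRODH sham hearts and fell by 0.51 ± 0.09 on the log2 scale. It was also called after the length adjustment, at -0.53.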
